A study of Homo sapiens with 30 samples.

Results

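Guides against 485 of 737 chromatin regulator genes (65.8%) were called depleted in PLC/PRF/5 cells after 28 days of growth as a monolayer. The calls included weak ones, and 151 genes (20.5%) had a Score (signed -log10 rank statistic) of -2 or lower. Of germline, lymphoid and muscle genes, 57.6% were called too, and 0 reached that limit. No gene was called as gaining guides (0.0%), but the FDR column called no positive Score of any size. PLC/PRF/5 is an established human liver tumour line whose genome holds integrated DNA of hepatitis B virus. The lowest Scores belonged to GTF3C4, the methylosome genes WDR77 and PRMT5, the replication fork factor TONSL and the deacetylase HDAC3. The RNA exosome, Elongator and the INO80 remodeler were depleted in every measured subunit. Guides against BCOR, ZMYND11, ATXN7L3 and YAP1 lay at the other end, without reaching a call.

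The experiment comprised 3 PLC/PRF/5 2D Final libraries (day 28) and 3 PLC/PRF/5 2D Initial libraries (day 0), 6 of the 30 libraries of the series, and all 737 genes of the guide library were members. Cells carried Cas9 and guides from a lentiviral vector, were selected with puromycin, and grew on tissue culture plastic in RPMI with 10% FCS. The labels give the treatment as none in 2D, although the library names of the day 28 samples carry the word DMSO, the solvent used as a control elsewhere in the series. The labels do not say whether the 3 libraries came from separate transductions, so the spread behind each call may be technical, and the results hold for this line alone.

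In a pooled knockout screen each cell receives a guide that directs Cas9 to cut a coding exon, and the guide itself, read from genomic DNA, serves as the barcode of that cell and its descendants. Guides whose target the cells need are diluted as the others divide, so dropout between the initial and final libraries reports fitness in that culture. MAGeCK, the tool the authors used, ranks the guides by their change and asks by robust rank aggregation (RRA) whether the guides against a gene sit together near an end of that ranking. The Score in the authors' deposited table is -log10 of the RRA value, with a negative sign for guides lost by day 28 and a positive sign for guides gained. A Score therefore grows with the agreement of a gene's guides and is not a fold change. The table holds no library's own values, so no SD, depth or replicate check could be given, and the FDR of MAGeCK is the only error estimate.

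Scores in the monolayer screen ran from -8.82 for GTF3C4 to 4.80 for USP17L2, with a median of -0.57 and quartiles of -1.62 and 0.39. Of the 488 genes below 0, 485 were called depleted at an FDR under 0.05, and the weakest Score called was -0.087. HIF1AN, PRDM1 and KAT2B, at Scores between -0.071 and -0.065, were the 3 that were not. The lowest FDR in the column, 1.1e-05, was shared by 312 genes (42.3%) with Scores up to -0.84, so the FDR does not order the strong genes. A Score of -2 or lower was therefore counted beside the call. It was reached by 151 genes (20.5%), while 63 lay at -3 or lower, 33 at -4 or lower and 10 at -5 or lower. All 249 genes above 0 had an FDR of 1, including 28 genes with a Score of 2 or higher, so every positive Score below is a value and not a call. MAGeCK's unadjusted p-values are not part of the table, so no count by them stands beside the 0 enriched calls. The column gave an FDR of 1 to positive Scores of any size, as did that of the HLF monolayer (up to 6.82 for ATXN7), while in PLC/PRF/5 spheroids RCOR1 was called enriched at 4.64. Counts of enriched genes in 2D and 3D are therefore not comparable.

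**Figure D1:**
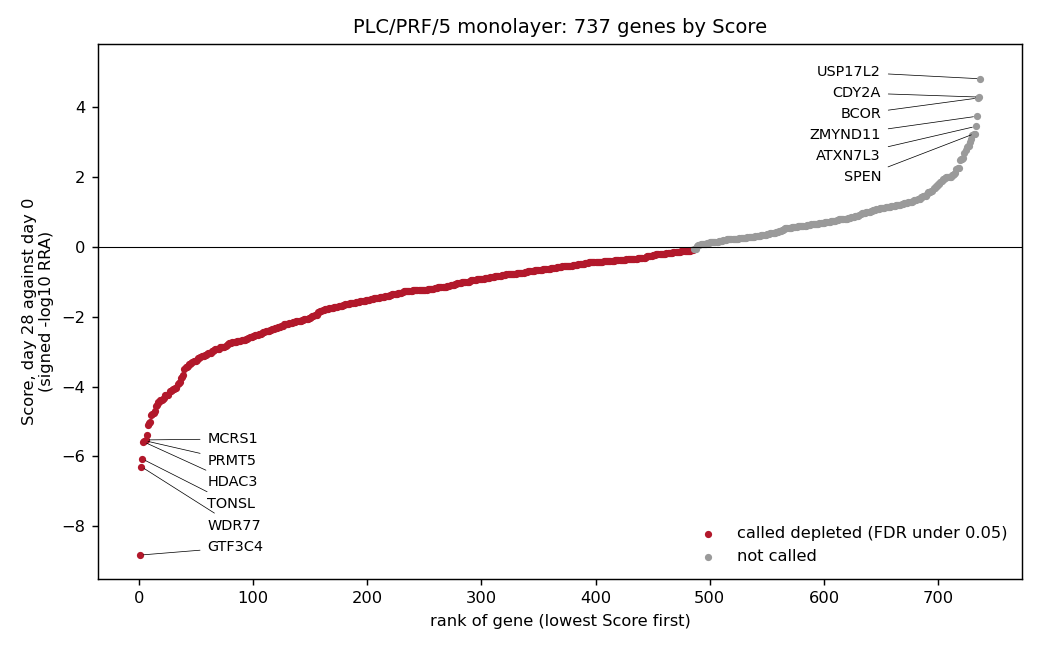
All 737 genes of the PLC/PRF/5 monolayer screen, ordered by Score (x axis, rank; y axis, Score as signed -log10 RRA, day 28 against day 0), in red where called depleted and grey where not called. GTF3C4 stands apart at -8.82, the calls reach up to -0.087, and no gene on the positive side was called although USP17L2 reached 4.80.

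GTF3C4 encodes a subunit of TFIIIC, the factor that places RNA polymerase III on transfer RNA and 5S ribosomal RNA genes, and its guides gave the lowest Score of the screen. The Score was -8.82 in the monolayer, -4.73 in the monolayer of HLF, a second liver cancer line, and -6.05 in PLC/PRF/5 spheroids, each called depleted. The gene lies on chromosome 9 of GRCh38 (132670035 to 132694955), and its 7 designed guides each matched the genome at a single site inside its coding exons, spread over 8900 bases with no overlap between neighbours. They are shown because the lowest Score rests on them, in genome order, as the 20 bases of the guide in lower case and the PAM that Cas9 requires, read from the hg38 genome, in capitals.
GTF3C4 guide 1: cctggttatccaccgcacctCGG
GTF3C4 guide 2: tgaaagtctgactgaccgtgGGG
GTF3C4 guide 3: gttatgcttgacctgctgggTGG
GTF3C4 guide 4: agacaattggcagtgagtgaAGG
GTF3C4 guide 5: cttgtggaaacccacccatgAGG
GTF3C4 guide 6: tgtggagatgcacttgaccaGGG
GTF3C4 guide 7: agtatgatgacagaactgcaCGG
The first of them lies at chr9:132670901-132670920 on the plus strand and the last at chr9:132679781-132679800, also on the plus strand.

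ZMYND11, a reader of histone H3.3 methylated at lysine 36, had the opposite sign, with a Score of 3.73 that was not called. Its 7 guides also matched the genome once each, in coding exons within 11603 bases of chromosome 10, from chr10:236885-236904 on the minus strand to chr10:248468-248487 on the plus strand. They are shown as the guides of the highest-scoring gene after USP17L2, CDY2A and BCOR.
ZMYND11 guide 1: tgcgggagacaatgaatctgAGG
ZMYND11 guide 2: ataaacacccgatgtacaggAGG
ZMYND11 guide 3: cctctgcagaaagtgaatgaAGG
ZMYND11 guide 4: gtgagcaagctgacattgcgAGG
ZMYND11 guide 5: ggatcacaaattacctctggTGG
ZMYND11 guide 6: acgtgaagcgcagtatgggtTGG
ZMYND11 guide 7: agcacccagaccacaaacgaCGG

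The guide sequences used here covered 164 of the 737 genes, 158 of them with 7 guides. Of their 1135 guides, 1117 matched hg38 at 1 site with an NGG PAM and 18 at more than 1, and 0 of 856 non-targeting guides, the controls of the screen, matched at any. The exceptions sat in E2F6 (6 of 7 guides at more than 1 site), H3F3A (5 of 7), HMGB1 (4 of 6) and UBE2D3 (3 of 7). Their monolayer Scores were -1.75, 2.06, -1.78 and -3.51, so such guides occurred on both sides of 0. HMGN2 had 4 guides and HMGN4 had 6, and both had a higher FDR than other genes of similar Score (0.0006 at -0.72 and 0.0142 at -0.20). NPM1, ENY2 and TNP1 also had a higher FDR than their neighbours in Score, and their guides were not analysed here.

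Counts of depleted genes in this and the following lists are to be read against the 65.8% called over all genes. Genes of RNA processing and translation were depleted in most cases. In the RNA exosome, which trims and degrades RNA, 9 of 9 genes were depleted and 6 lay at -2 or lower, with a median of -3.44 against -0.57 over all genes. EXOSC9 had a Score of -4.71 and EXOSC1 -1.12, so the weakest subunit still lay below the median of all genes. Elongator, which modifies the wobble base of transfer RNAs, was depleted in 6 of 6 subunits. ELP5, ELP6 and the catalytic ELP3 had Scores of -4.52, -4.39 and -4.14, and ELP4 and ELP2 had -2.50 and -1.23. Both the catalytic subcomplex, with ELP2 and ELP3, and the accessory one of ELP4 to ELP6 held members at -4 or lower and weaker ones.

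Nucleolar and ribosome biogenesis genes were depleted in 15 of 16 cases, at a median of -2.39. Below GTF3C4 came PELP1 (-3.92) and LAS1L (-3.37), which with SENP3 (-2.15) and TEX10 (-0.95) act in the rixosome, the assembly that processes the large ribosomal subunit. All 4 rixosome genes were depleted. The exception among the nucleolar genes was DDX50, at 1.34, the relative of the helicase DDX21. Among splicing factors 5 of 6 were depleted, with PRPF31 at -3.87, SRSF1 at -3.06, SFPQ at -2.93, SRSF3 at -2.67 and SF3B1 at -1.42. SF3B3, a subunit of the same U2 particle as SF3B1, had a Score of 1.75. It was the single gene not depleted among the 47 broadly essential genes, which had a median of -2.81 with 46 called and 35 at -2 or lower.

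The methylosome, which dimethylates arginines symmetrically on spliceosomal and histone proteins, was depleted in 3 of 3 genes. WDR77, the cofactor that holds the substrate (chromosome 1, 111439890 to 111449256), had -6.29, the catalytic PRMT5 had -5.55, and the adaptor CLNS1A had -2.42. The 7 other arginine methyltransferases had a median of -0.45 with 4 depleted. CARM1, the coactivator methyltransferase, had -4.24 and PRMT1 had -3.17, while PRMT2 lay highest at 0.65.

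Genes of the histone H3 lysine 4 methyltransferases are given in 4 groups. The COMPASS family shares a core of WDR5, RBBP5, ASH2L and DPY30, to which different catalytic subunits and partners bind. All 4 core genes were depleted, with ASH2L at -5.01, WDR5 at -3.32, DPY30 at -1.58 and RBBP5 at -0.97. Of the genes of MLL1 and MLL2 complexes, 4 of 4 were depleted, but unevenly. KMT2A, which encodes MLL1, had -4.77, and MEN1, which encodes the menin scaffold that tethers MLL1 to promoters, had -4.33. PSIP1, whose product LEDGF joins menin to chromatin, had -0.93, and KMT2B, the MLL2 gene, had -0.26. The MLL3 and MLL4 group, which marks enhancers, was depleted in 5 of 6 genes. KMT2D (MLL4) had -5.10, PAGR1 -3.25, the lysine 27 demethylase KDM6A -2.88, PAXIP1 -2.40 and NCOA6 -1.38, and KMT2C (MLL3) had 0.55. The SETD1 group, which places most promoter trimethylation, was depleted in 4 of 4 genes, with SETD1A at -3.05, WDR82 at -2.53, CXXC1 at -0.70 and SETD1B at -0.31. In each catalytic pair, 1 gene held a Score of -3 or lower and its partner lay above the median of all genes. Calls covered 65.8% of all genes, and 39.1% had a Score of -1 or lower. That limit was reached by 3 of 4 core genes and 5 of 6 MLL3 and MLL4 genes. It was reached by 2 of 4 genes in the MLL1 and MLL2 group and 2 of 4 in the SETD1 group.

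Acetyltransferase complexes and the remodelers that share subunits with them followed. INO80, which slides nucleosomes and exchanges H2A.Z, was depleted in 15 of 15 genes at a median of -2.64. Its lowest member was MCRS1, at -5.53, and its highest INO80C, at -1.16. The NSL complex, an assembly around the acetyltransferase KAT8, was depleted in 9 of 9 genes at a median of -2.30, from MCRS1 to PHF20 at -0.37. MCRS1, WDR5 and KAT8 stand in other lists too, and the 6 NSL genes in no other list had a median of -1.36. The MSL complex, the other assembly around KAT8, was depleted in 1 of 4 genes. KAT8 itself had -2.30, and MSL2, MSL1 and MSL3 had 0.49, 0.88 and 1.20. In TIP60 and SRCAP, which acetylate histones and deposit H2A.Z, 15 of 18 genes were depleted at a median of -1.48. TRRAP, the scaffold that TIP60 shares with SAGA, had -4.34 and EPC1 lay highest at 0.77.

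SAGA carries an acetyltransferase and a deubiquitinase module. Of 15 core and acetyltransferase genes, 13 were depleted at a median of -1.61, from TADA3 (-4.75) to TAF9B (0.59). In the deubiquitinase module 3 of 4 genes were depleted and 0 lay at -2 or lower. The enzyme gene USP22 had -1.99, ATXN7 -0.93 and ENY2 -0.87, while ATXN7L3, the adaptor that activates the enzyme, had 3.44. ATAC, the other complex built on the same acetyltransferases, was depleted in 5 of 6 specific genes. TADA2A had -2.13, YEATS2 -1.99, ZZZ3 -1.64, MBIP -0.55 and DR1 -0.41, and CSRP2BP (also called KAT14) had 1.24. TFIID, the general factor that binds core promoters, was depleted in 11 of 11 genes at a median of -1.51, from TAF8 (-4.39) to TAF9 (-0.16). Genes of RNA polymerase II pause release and elongation were depleted in 11 of 12 cases at a median of -2.66. The pause release kinase gene CDK9 had -4.06, and MLLT1 lay highest at 0.69.

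In the pathway that ubiquitinates histone H2B during elongation, 4 of 5 genes were depleted. The adaptor gene WAC had -4.55, the ligase subunits RNF40 and RNF20 had -3.28 and -1.83, and of the conjugating enzymes UBE2A had -1.25 and UBE2B 1.31. Among the coactivators, EP300 had -4.25 and its relative CREBBP -1.49, both depleted. NCOA1, a nuclear receptor coactivator, had -0.50, and NCOA2 and NCOA3 had 0.79 and 1.24.

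The remaining remodelers and the corepressors are given next, and their shares are to be read against the 65.8% called over all genes. In the BAF and PBAF family, which evicts and slides nucleosomes, 13 of 23 genes (56.5%) were depleted at a median of -0.32, a smaller share than over all genes. ACTB, which encodes the actin subunit and also the cytoskeletal protein, was lowest at -3.90, and SMARCB1 and DPF2 had -2.73 and -2.60. BRD9, which defines the non-canonical BAF, was highest at 2.89, and BRD7 of PBAF had 2.54. ISWI complexes had 8 of 12 genes depleted (66.7%), a share near that of all genes, at a median of -1.69, from BPTF (-3.75), the large subunit of NURF, to BAZ1B (3.00), and CHD remodelers had 8 of 9, from CHD2 (-2.29) to CHD3 (0.41). NCoR, the corepressor of nuclear receptors, had 3 of 4 genes depleted. Its deacetylase HDAC3 (chromosome 5, 141620881 to 141636849) had -5.58, the scaffold NCOR1 had -2.19, and TBL1XR1 had 0.31.

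The other class I deacetylases lay far from HDAC3. HDAC8 and HDAC2 were depleted at -0.91 and -0.65, and HDAC1 had 0.57. Complexes built on HDAC1 and HDAC2 had shares on both sides of that of all genes. SIN3 had 8 of 14 genes depleted, from ARID4A (-1.49) to SIN3B (1.36), with 0 at -2 or lower. NuRD had 6 of 13, from RBBP4 (-2.20), which it shares with PRC2 and CAF-1, to MTA3 (2.24), and CoREST had 9 of 12, from RCOR1 (-1.64) to ZMYM2 (2.50).

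**Figure D2:**
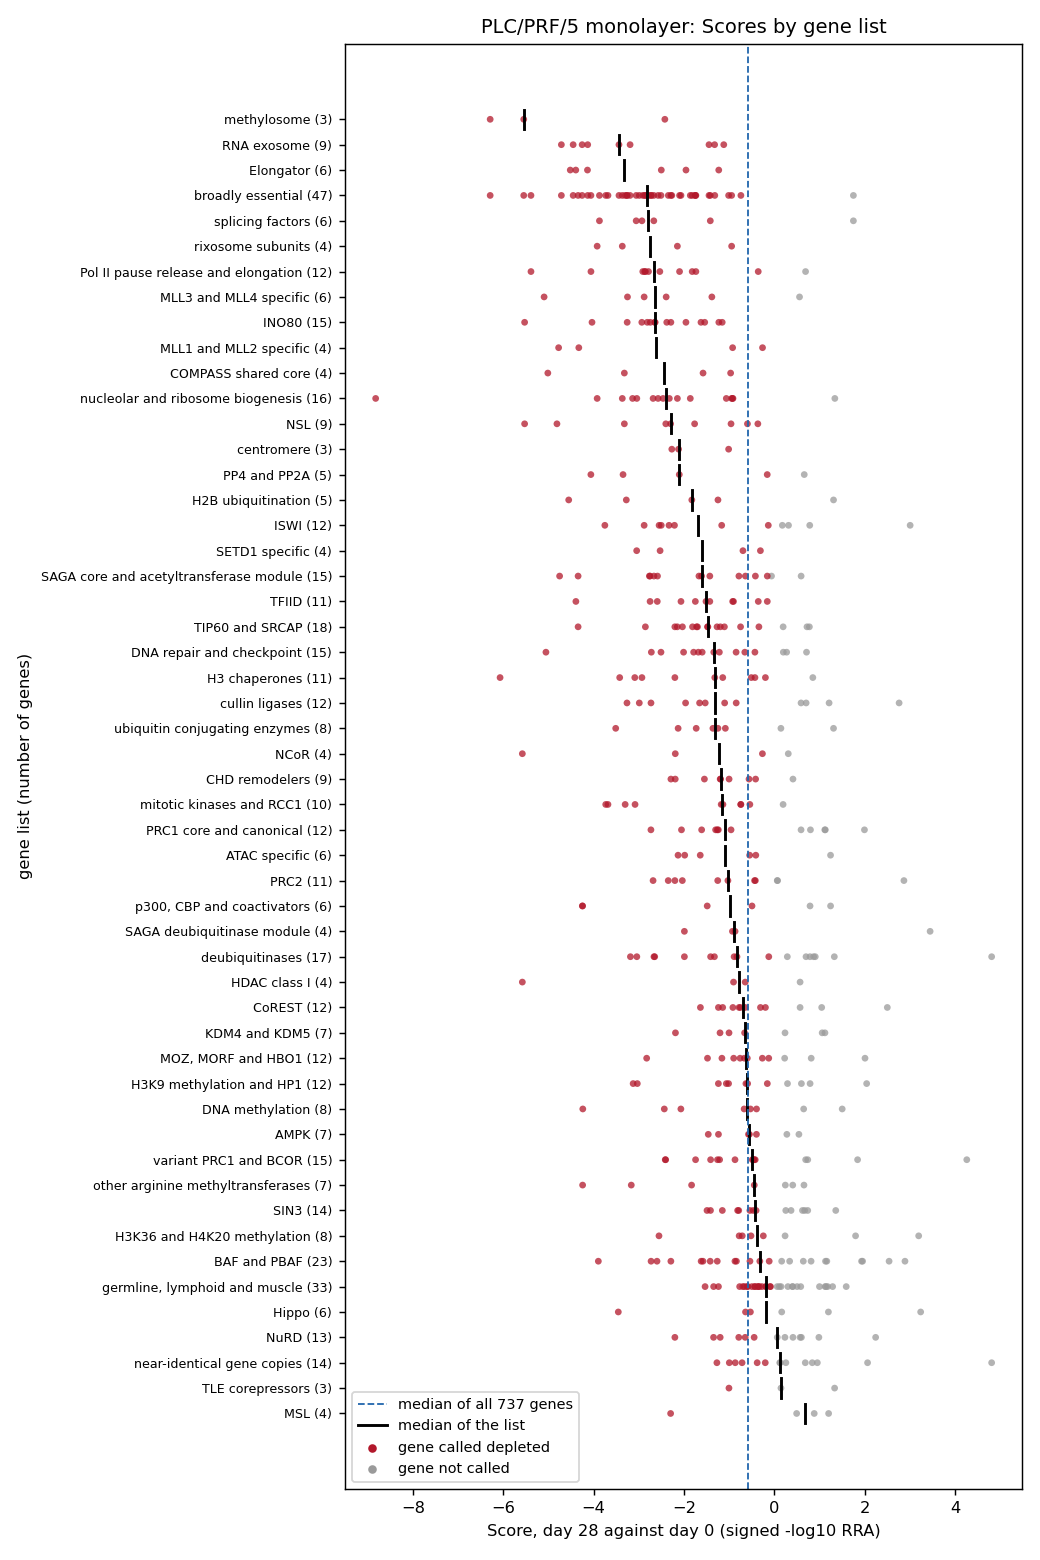
Scores of the genes in 52 lists of at least 3 genes (y axis, with the number of genes), ordered by the median of the list (black bar), on the signed -log10 RRA scale (x axis). Points are genes, red where called depleted and grey where not, and the dashed line is the median of all 737 genes (-0.57). The methylosome, RNA exosome and Elongator lie farthest to the left, and NuRD, the TLE corepressors, near-identical gene copies and MSL have medians above 0.

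Shares called in the repressive pathways lay around the 65.8% of all genes, from 58.3% in canonical PRC1 to 6 of 8 in DNA methylation. PRC2, which methylates histone H3 at lysine 27, was depleted in 8 of 11 genes at a median of -1.03. The core genes EED, SUZ12 and EZH2 had -2.69, -2.35 and -1.26, and JARID2, an accessory subunit, lay highest at 2.86. Canonical PRC1, which ubiquitinates H2A and compacts chromatin, had 7 of 12 genes depleted, from RING1 (-2.73) to BMI1 (1.99). Variant PRC1 had 11 of 15, from MAX (-2.42) to BCOR (4.25). Genes of H3K9 methylation and its HP1 readers had 8 of 12, where the partner methyltransferases EHMT1 and EHMT2 had -3.13 and -3.03 and ATF7IP, which stabilises SETDB1, had 2.04. In DNA methylation 6 of 8 genes were depleted, from the maintenance enzyme DNMT1 (-4.24) to the de novo enzyme DNMT3B (1.50).

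Replication, repair and division genes were mostly depleted. Of the H3 chaperones 10 of 11 were called, from TONSL (-6.07), which reads newly placed histones behind the fork, to DAXX (0.85). DNA repair and checkpoint genes were called in 12 of 15 cases, from PRKDC (-5.06), the kinase of end joining, to ATM (0.71). Mitotic kinases and RCC1 were called in 9 of 10, from RCC1 (-3.73) to PBK (0.19). The centromere genes CENPA, HJURP and CENPC were all depleted, at -2.27, -2.12 and -1.01.

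Ubiquitin and phosphatase genes spanned a wide range. Cullin ligase genes were depleted in 8 of 12 cases (66.7%) and deubiquitinases in 10 of 17 (58.8%), neither far from the 65.8% of all genes. The cullin ligase genes ran from DDB1 (-3.26) to KEAP1 (2.76), the adaptor through which CUL3 degrades NRF2. Conjugating enzymes were depleted in 6 of 8, from UBE2D3 (-3.51) to UBE2B, and deubiquitinases ran from BAP1 (-3.19) to USP17L2. The phosphatase genes PPP4C, PPP2CA and PPP4R2 had -4.06, -3.35 and -2.11. SMEK2, a regulatory subunit of PP4, was depleted at -0.16 and its relative SMEK1 had 0.66.

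Other histone modifiers and AMPK were also called in shares around that of all genes, from 57.1% upwards. MOZ, MORF and HBO1 genes were depleted in 9 of 12 cases, from ING5 (-2.83) to JADE3 (2.00). The KDM4 and KDM5 demethylases were depleted in 4 of 7, from KDM5C (-2.19) to KDM4B (1.12). For H3K36 and H4K20 methylation the count was 5 of 8, from SUV420H1 (-2.55) to SUV420H2 (3.19). AMPK subunits, the energy sensor, were depleted in 5 of 7 cases, from PRKAB2 (-1.46) to PRKAA1 (0.54).

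Signalling and sequence-specific factors were mixed. Of the Hippo genes 3 of 6 were depleted. TEAD3 had -3.45, TEAD4 -0.64 and TEAD2 -0.53, while TEAD1, the kinase gene STK4 and the coactivator YAP1 had 0.16, 1.19 and 3.23. The symbol TAZ can name the YAP1 relative WWTR1 or the mitochondrial transacylase tafazzin, and all 7 TAZ guides matched coding exons of TAFAZZIN on chromosome X (154412173 to 154420718). A pair is shown to let the target be read, at chrX:154412173-154412192 on the minus strand and at chrX:154419542-154419561 on the plus strand.
TAZ guide 1: gcaggactggtgattggacaCGG
TAZ guide 4: ggagatggcgtctaccagaaGGG
TAZ was depleted at -2.20, a value that belongs to the mitochondrial gene and stands outside the Hippo list. NFYC, a subunit of the CCAAT-binding factor NF-Y, was depleted at -1.25, and NFYB had 0.86. TLE2 was depleted at -1.01, with TLE4 at 0.14 and TLE1 at 1.33. The cell cycle factors E2F6 and TFDP1 were depleted at -1.75 and -1.26, and RB1, the retinoblastoma gene, had 1.18.

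Genes with known roles in germ cells, lymphocytes or muscle served as a reference for the reading of a call. Of 33 germline, lymphoid and muscle genes 19 (57.6%) were called depleted at a median of -0.19, but 3 lay at -1 or lower and 0 at -2 or lower. BRDT, the testis bromodomain gene, had -1.53 and DND1 1.59. The share called thus lay near that of all genes, while a Score of -2 or lower, reached by 20.5% of all genes, was not met by any of them. Guide abundance carries no expression, so the labelled cell type was not checked against marker genes here. The 14 genes with near-identical copies had 6 calls, from HSPA1A (-1.27) to USP17L2.

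The highest Scores were USP17L2 (4.80), a deubiquitinase of a multicopy family, and CDY2A (4.28), a chromodomain gene of the Y chromosome. BCOR (4.25), the corepressor of variant PRC1, and ZMYND11 (3.73) came next, followed by ATXN7L3 (3.44). The corepressor SPEN had 3.24, the coactivator YAP1 3.23, the H4K20 methyltransferase SUV420H2 3.19, the bromodomain ATPase ATAD2 3.08 and BAZ1B 3.00. All had an FDR of 1. Of these 10, 5 were called depleted in the HLF monolayer, where 68.0% of all genes were. In PLC/PRF/5 spheroids 8 of the 10 had a Score below 0, where the median of all genes was -0.51. Of the Y chromosome genes 0 of 6 were depleted, with Scores from 0.73 to 4.28, against 48.5% to 81.0% depleted on the 20 chromosomes with at least 15 genes. Chromosomes 18 and 21, with few genes like Y, had 4 of 10 (40.0%) and 2 of 9 (22.2%), and 4 of the 6 Y genes are copies of CDY (CDY1, CDY1B, CDY2A and CDY2B). Their HLF monolayer median was 2.28, with 0 of 6 depleted there too.

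Scores of related genes were set side by side in 40 pairs of paralogs. Both genes were depleted in 17 pairs, 1 gene in 19 and none in 4. In 18 pairs a depleted gene faced a partner with a Score above 0. Over all 737 genes, 485 (65.8%) were depleted and 249 had a Score above 0. Pairs of unrelated genes were not counted, so these counts do not set paralogs apart from other genes. The median difference within a pair was 1.49. The table repeats a single screen, that of HLF spheroids, which was run again with DMSO. Scores of the same gene in those runs differed with an SD of 1.499, and 20 pairs lay farther apart than that. This spread comes from another line and culture and is given as a yardstick, not as a test of any pair.

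HCFC1 and HCFC2, host cell factors, were farthest apart at -4.81 and 1.46. SUV420H1 and SUV420H2 followed at -2.55 and 3.19, and KMT2D and KMT2C at -5.10 and 0.55. BCORL1 was depleted at -0.43 where BCOR had 4.25. The next pairs were KMT2A and KMT2B at -4.77 and -0.26, the helicases DDX21 and DDX50 at -2.46 and 1.34, and the demethylases KDM6A and KDM6B at -2.88 and 0.89. UBE2D3 and UBE2D1 had -3.51 and 0.14. SMARCA2 and SMARCA4, the alternative ATPases of BAF, had -1.58 and 1.93, and only the first was depleted. At the close end of the range, ASF1A and ASF1B, EHMT1 and EHMT2, ARID1A and ARID1B, and EZH1 and EZH2 differed by at most 0.23, and both genes of each pair were depleted.

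**Figure D3:**
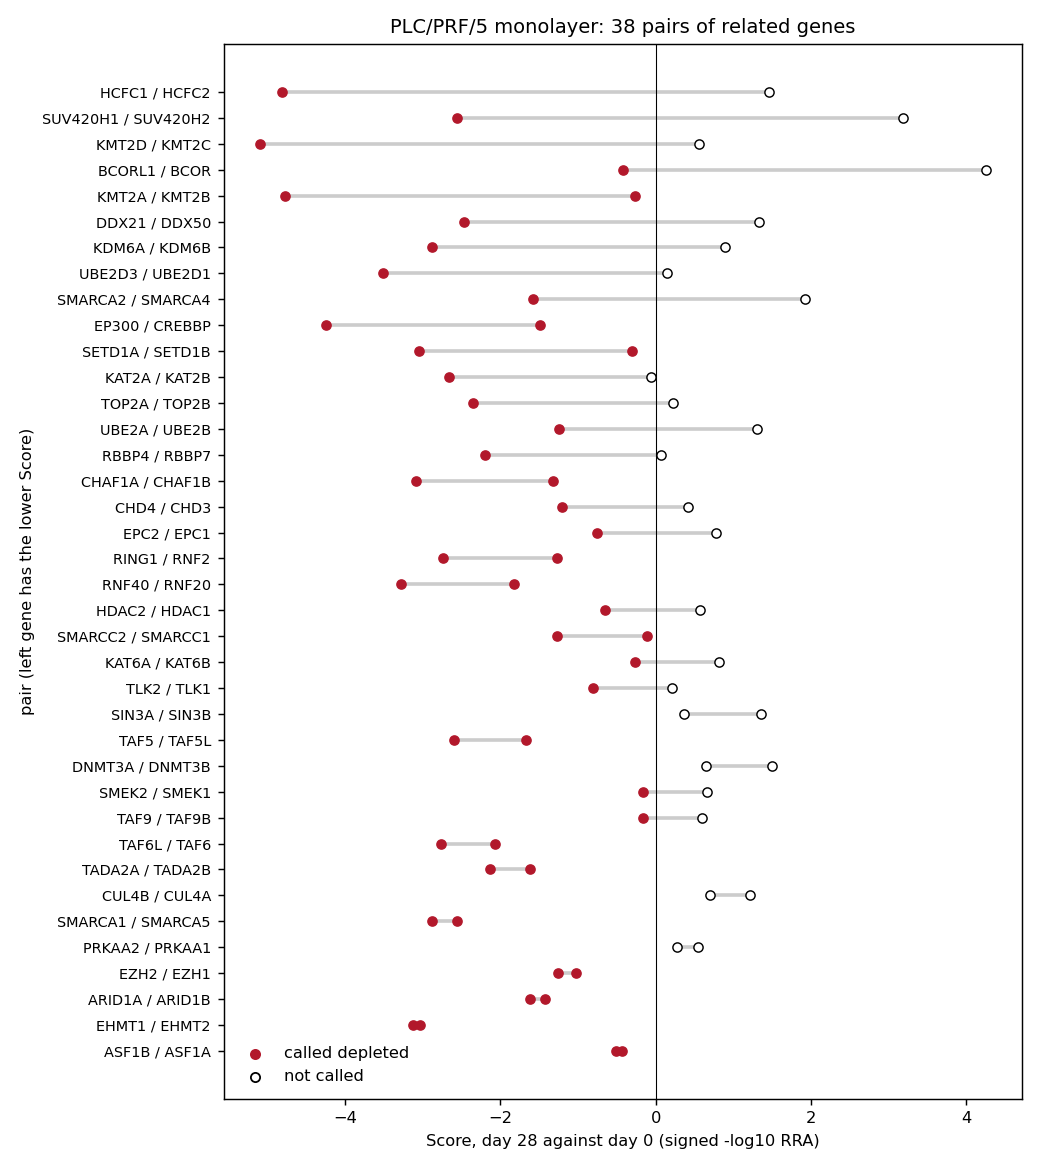
Scores (x axis, signed -log10 RRA) of both genes in 38 pairs of related genes (y axis), ordered by the distance within the pair, filled red where called depleted and open where not. HCFC1 and HCFC2 lie farthest apart (-4.81 and 1.46) and ASF1A and ASF1B closest.

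The HLF monolayer served to show where PLC/PRF/5 differed. HLF is a liver cancer line grown in DMEM with 10% FCS. Its 2D screen used initial and final libraries of its own, so line, medium and screen cannot be told apart. MAGeCK called 501 genes depleted there (68.0%), and 193 (26.2%) had a Score of -2 or lower. Of the 151 PLC/PRF/5 genes at -2 or lower, 108 (71.5%) were at -2 or lower in HLF, which is 56.0% of the 193, and 9 had a Score above 0 in HLF. All of the 15 lowest PLC/PRF/5 genes were at -2 or lower in HLF. No test of the difference between lines was in the table, so the following differences are values without a test.

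Genes lower in PLC/PRF/5 included some SAGA deubiquitinase genes, but not ENY2 (-0.87 against -3.24 in HLF) or ATXN7L3 (3.44 against 2.38). ATXN7 had -0.93 in PLC/PRF/5 and 6.82 in HLF, and USP22 had -1.99 and 6.34. The SAGA adaptor TADA2B had -1.61 and 2.71. The acetyltransferase gene CREBBP had -1.49 and 4.04, and L3MBTL3, a reader of methylated lysine, had -4.44 and 1.04. Other genes of the same kind were HDAC8 (-0.91 and 3.58), BCORL1 (-0.43 and 4.09) and BAHD1, a heterochromatin factor (-4.09 and 0.24). The 8 genes named here as lower in PLC/PRF/5 were all called depleted there and had a Score above 0 in HLF. Over all 737 genes this held for 105, and the choice of the 8 by the size of the difference favoured it.

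Genes higher in PLC/PRF/5 were led by BAZ1B (3.00 against -2.80) and KEAP1 (2.76 against -2.65). SIN3A, the scaffold of SIN3, had 0.37 against -4.68, and the demethylase PHF8 had 2.23 against -2.76. BCOR had 4.25 against -0.61, ZMYM2 2.50 against -2.14, and HLCS, the ligase that attaches biotin to carboxylases, 2.87 against -1.64. These 7 were called depleted in HLF and had a Score above 0 in PLC/PRF/5. Over all 737 genes this held for 120, and the choice by the size of the difference favoured it. ACTB was depleted in both, at -3.90 and -8.55. By list, the median of the SAGA deubiquitinase module was -0.90 in PLC/PRF/5 and 4.36 in HLF, although its members ENY2 and ATXN7L3 were higher in PLC/PRF/5. The median of MSL was 0.68 and -0.93, and that of the broadly essential genes -2.81 and -4.02.

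**Figure D4:**
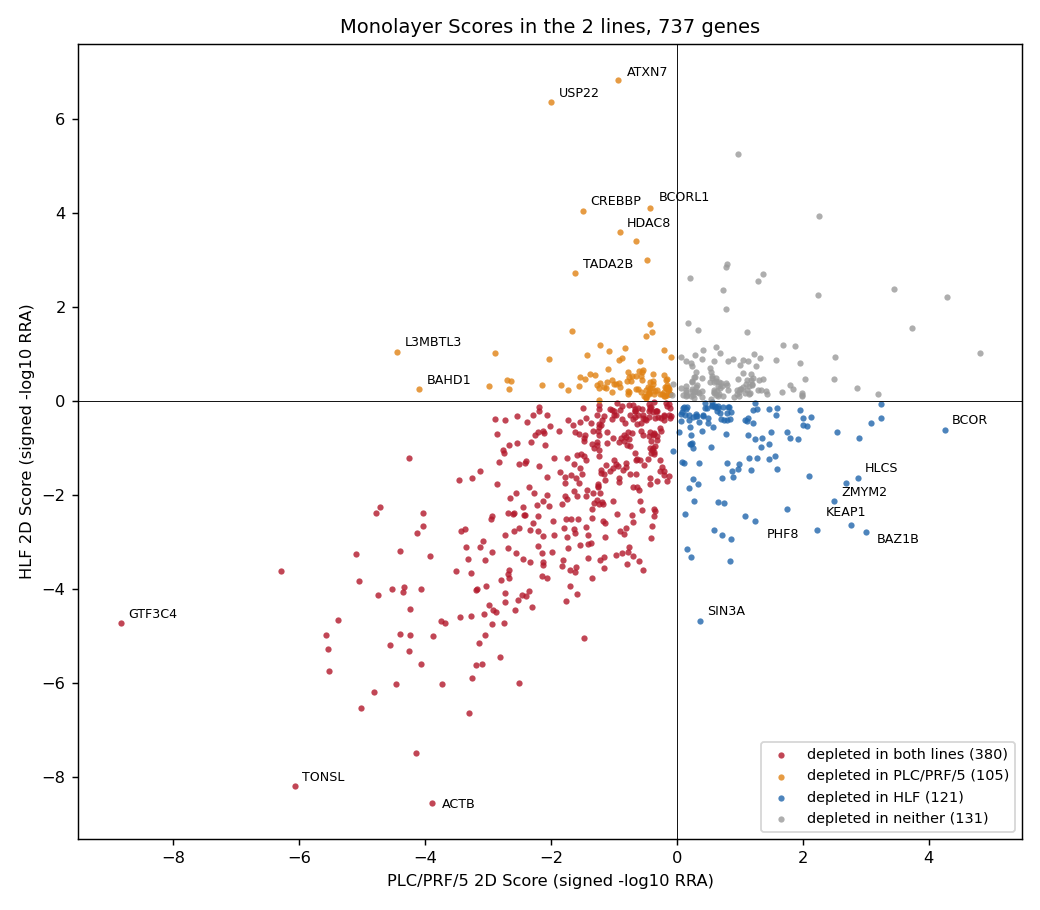
Monolayer Scores of 737 genes in PLC/PRF/5 (x axis) and HLF (y axis), both as signed -log10 RRA against day 0, coloured by the calls, with the 8 genes farthest apart in each direction, GTF3C4 and TONSL named. Most genes called in PLC/PRF/5 lie in the lower left (380 called in both), while ATXN7 (6.82) and USP22 (6.34) lie highest in HLF with PLC/PRF/5 Scores below 0.

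The same line was also grown as spheroids in methylcellulose on low-attachment plates, and the Scores of that screen differed from those of the monolayer. PLC/PRF/5 3D Final was compared with an initial group of its own, 3 libraries each. MAGeCK called 175 genes depleted (23.7%) and 17 enriched (2.31%) there. Of the 151 genes at -2 or lower in the monolayer, 77 were also called depleted in spheroids and 43 had a spheroid Score above 0. Of the 15 lowest monolayer genes, 11 were depleted in spheroids. HDAC3, KMT2D and WAC had spheroid Scores of 3.69, 1.62 and 0.92, and none of these 3 was called there.

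The table also sets the final libraries of both cultures against each other. This column shares the 2D final libraries with the monolayer screen, so it is not independent of it, and its values are given side by side. Its direction was read as 3D over 2D, because it rose with the spheroid Score minus the monolayer Score (r = 0.879 across 737 genes, which share libraries and are not independent replicates). The number tags in the column names differ between the 2D and 3D screens of this line, and the labels do not explain them. Culture and any batch that the tags mark therefore cannot be told apart. MAGeCK called 52 genes higher in 3D (7.06%) and 1 lower (0.136%). Of the 52, 43 were depleted in the monolayer, 18 of them at -2 or lower, and all 43 had a spheroid Score above 0. Over all genes, 65.8% were depleted in the monolayer and 20.5% lay at -2 or lower.

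Of the 17 genes enriched in spheroids, 12 were called depleted in the monolayer, where 65.8% of all genes were depleted. These 12 were also called higher in 3D over 2D. UBE2D3, a ubiquitin-conjugating enzyme of broad use (chromosome 4, 102794383 to 102868895), had -3.51 in the monolayer, 7.56 in spheroids and 11.05 in the endpoint comparison. Of its 7 guides 4 had a single match in hg38, and guides 2, 6 and 7 also matched sites outside coding exons on chromosome 3 or 20, as shown here with the PAM in capitals. Guides 6 and 7 overlap by 11 bases and so share part of their target. The guides lie between chr4:102799432-102799451 on the plus strand and chr4:102809810-102809829, also on the plus strand.
UBE2D3 guide 1: gtgcaatctctggcactaggGGG
UBE2D3 guide 2: tcgatattctaagatcacagTGG
UBE2D3 guide 3: gggaaaatacttgccttaggTGG
UBE2D3 guide 4: aatgacagcccatatcaaggCGG
UBE2D3 guide 5: acttacaggtcccataattgTGG
UBE2D3 guide 6: atgttctgcaggtccagttgGGG
UBE2D3 guide 7: ctgcagaacattgtgctggaGGG

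Among the other 11 genes, CUL3, a cullin scaffold, had -1.53 in the monolayer and 9.04 in spheroids, and SPOP, an adaptor of CUL3, had -1.66 and 10.79. The scaffold CUL5 had -1.10 and 5.78, the ligase HUWE1 -1.60 and 4.89, and the deubiquitinase gene USP21 -2.67 and 5.22. KDM1A, the demethylase of CoREST, had -1.15 and 7.80, and its scaffold RCOR1 had -1.64 and 4.64. PAXIP1 and NCOA6, of the MLL3 and MLL4 complexes, had -2.40 and 6.28, and -1.38 and 4.60. DPF2 of BAF had -2.60 and 6.41, and NIPBL, the loader of cohesin, had -1.58 and 4.95.

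By list, the MLL3 and MLL4 genes had a median of -2.64 in the monolayer, 2.41 in spheroids and 4.67 in the endpoint comparison, where 4 of 6 were called higher. KMT2D was among them, at 4.34 over 2D. The MLL1 and MLL2 genes had -2.63, -2.86 and -0.75, with 0 of 4 called higher. KMT2A and MEN1 had spheroid Scores of -4.60 and -3.07, both depleted, and the COMPASS core had 0 of 4 called higher. Further monolayer losses that were called higher in 3D over 2D without a spheroid call included HDAC3 (5.12), ACTB (5.78), the PP4 subunit PPP4R2 (4.27) and TRRAP (4.55), among others.

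MAP3K7, a kinase of inflammatory signalling also called TAK1, was the single gene called lower in 3D over 2D, at -6.64, with 0.22 in the monolayer and -5.66 in spheroids. SIN3A had 0.37 and -6.01 and TADA1 -0.79 and -5.16, both depleted in spheroids and neither called in the endpoint comparison. The remaining genes with a monolayer Score far above the spheroid one were CDY2A (4.28 and -0.73), ZMYND11 (3.73 and -1.38), BCOR (4.25 and -0.51), HLCS (2.87 and -1.98) and ATXN7L3 (3.44 and -1.13). Of these 5, HLCS was called depleted in spheroids.

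**Figure D5:**
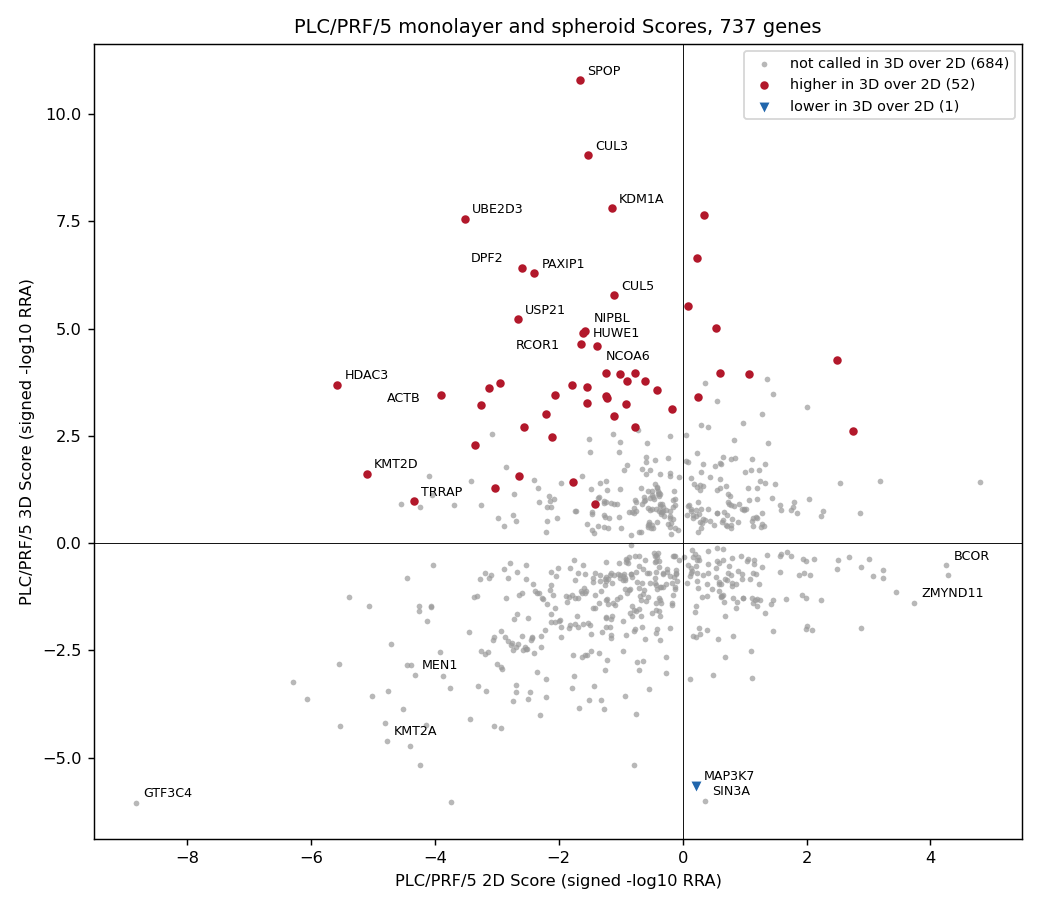
Scores of 737 genes in PLC/PRF/5 monolayer (x axis) and spheroid culture (y axis), both as signed -log10 RRA against day 0, marked by the call in the comparison of 3D over 2D final libraries. The 52 genes called higher (red) all lie above 0 in spheroids and 43 of them below 0 in the monolayer, and MAP3K7 (triangle) is the gene called lower.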

How the data were processed

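Genomic DNA of PLC/PRF/5 2D Final (day 28) and Initial (day 0) cells, 3 libraries each, was sequenced for guide abundance. The authors ran MAGeCK (no version is given in the sources used here) with non-targeting guides as controls. Per the labels and file headers, the deposited table holds for each gene and comparison an RRA Score (a signed -log10 value) and an FDR, which is an adjusted p-value. It holds the authors' own comparisons and no library's values or depth, so no test was fitted here and no interval could be computed. Of its 9 comparisons 6 were used. A gene was called depleted or enriched at an FDR under 0.05 with a Score below or above 0.

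Counts, medians and differences were computed with Python 3.11.15, numpy 2.4.6, pandas 2.3.3 and matplotlib 3.10.9, and the summaries were tested on simulated data. Guides listed in the part of the study's library table used here were matched exactly to hg38 with an NGG PAM and annotated with GENCODE v44. Gene positions are RefSeq's on GRCh38.p14, where 732 of 737 symbols matched, 26 of them through a synonym. No source used here gives the genome build of the guide design.

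The members and gene lists were chosen with earlier results of these data known, so no list was tested. The text names the 15 lowest and 10 highest genes, the lowest and highest member of each list (all members of lists of up to 6), the 10 paralog pairs farthest apart, the menin-MLL1 and NF-Y genes, the 8 genes in each direction that differ most from HLF 2D and from PLC/PRF/5 3D, and the genes depleted in 2D, enriched in 3D and higher in 3D over 2D. A few further list members, the genes below 0 that were not called, those with an unusual FDR, guide matches or symbol, and a few genes higher in 3D over 2D were chosen after their values were seen. Alternatives were other FDR and Score limits, means for medians, and lists without shared members. Results of some genes are not reported here.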

Additional observations from a re-analysis of the deposited data

Results flagged for a closer look

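In 12 genes the direction of the call differed between the cultures of PLC/PRF/5: depleted in the monolayer, enriched in spheroids, and called higher when the 3D final libraries were compared with the 2D final libraries by MAGeCK. The Scores of that comparison were 11.05 for UBE2D3, 10.91 for CUL3, 10.72 for SPOP, 8.22 for DPF2, 7.95 for KDM1A and 7.22 for PAXIP1. They were 6.56 for CUL5, 6.28 for USP21, 5.61 for NIPBL, 5.30 for RCOR1 and for NCOA6, and 4.50 for HUWE1. The comparison shares the 2D final libraries with the monolayer screen. The number tags of the 2D and 3D screens differ without explanation, so culture and any batch they mark cannot be told apart. Of the 17 genes enriched in PLC/PRF/5 spheroids, these 12 were the ones depleted in the monolayer, where 65.8% of all genes were depleted. Monolayer Scores of the 12 ran from -3.51 (UBE2D3) to -1.10 (CUL5), and the testis gene BRDT had -1.53.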

How the results depend on the processing

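The count of depleted genes depended on the size of Score required. At an FDR under 0.05 alone it was 485, and with a Score of -1 or lower 288, and with -2 or lower 151, while FDR limits of 0.01 and 0.001 gave 462 and 421 and leaving out near-identical copies gave 479. No gene was called enriched at an FDR under 0.25, and 28 had a Score of 2 or higher. The looser limit could not change that count, because the FDR column called no positive Score of any size. In 3D over 2D, 33 genes were higher at an FDR under 0.01, against 52, and 3 were lower at an FDR under 0.25, against 1. Of 54 list medians, means kept the direction in all but 2: NuRD went from 0.062 to -0.119 and H3K36 and H4K20 methylation from -0.38 to 0.051. Without members of another list, 45 medians could be computed and that of the deubiquitinases went from -0.83 to 0.079, while COMPASS (-1.58), NSL (-1.36), RNA polymerase II elongation (-1.45) and NCoR (-0.27) moved towards 0 and H2B ubiquitination (-3.28) away from it. Means moved 4 further medians by more than 0.75, the SD of list medians between the HLF spheroid runs: splicing factors (-2.03), the methylosome (-4.75), the SAGA deubiquitinase module (-0.088) and the class I deacetylases (-1.64). Requiring a Score of -1 or lower changed the share called by more than 1.5 times in 20 of 54 lists, where the share of all genes was 39.1%. No paired analysis was possible because the deposited table holds no values per library, and for the same reason leaving out a replicate was not run.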
